A study of Mus musculus with 27 samples.

Results

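The 6 arrays described here are the wild-type embryonic arrays of a 27-array series on mouse esophagus, 3 titled E11.5 and 3 titled E15.5. They were divided by their expression profiles and not by their titles. The early set held the arrays titled E11.5 replicate 1, E11.5 replicate 2 and E15.5 replicate 1, and the late set held those titled E11.5 replicate 3, E15.5 replicate 2 and E15.5 replicate 3. Compared with the deposited labels, the array titled E15.5 replicate 1 and the array titled E11.5 replicate 3 thus changed places. The age of the embryo behind either array was not established here, so each array is called by its title. Because the sets were formed from the same values that are compared below, every difference between the late and the early set is a description, with no test.

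All 6 samples were whole esophagi of C57BL/6J embryos without any mutant allele, taken at embryonic day 11.5 or 15.5 according to their titles, and RNA was extracted from single esophagi. The other wild-type arrays used here came from whole esophagi at the day of birth (P0, n = 3) and at postnatal day 7 (P7, n = 3). Each esophageal RNA was labelled with Cy5 and hybridized together with Cy3-labelled Universal Mouse Reference RNA, the same on all arrays, so that a value is a log2 ratio of esophagus over reference. A difference of 1 between log2 ratios is a 2-fold difference in RNA. In whole tissue, fewer cells of a type and less RNA per cell cannot be told apart.

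The esophagus and trachea separate from a common foregut tube, after which the simple columnar lining of the esophagus becomes layered. Ciliated cells appear in it for a time before a stratified squamous epithelium, with basal cells below and differentiating suprabasal cells above, takes over. Around it, the mesenchyme forms connective tissue and smooth muscle, striated muscle enters the outer wall, and neural crest cells build the enteric nervous system.

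The 6 profiles fell into 2 tight groups of 3. Over the 18490 genes with a probe well above background on at least 3 of the 6 arrays, Pearson's r was 0.90 to 0.96 between arrays of the early set, 0.97 to 0.98 within the late set and 0.76 to 0.84 between the sets. The array titled E11.5 replicate 3 had r = 0.98 with each of the arrays titled E15.5 replicate 2 and E15.5 replicate 3, but r = 0.83 and 0.77 with those titled E11.5 replicate 1 and E11.5 replicate 2. The array titled E15.5 replicate 1 had r = 0.96 and 0.93 with those last arrays, against 0.80 and 0.81 with the others of its title. These correlations run across genes, which share the array and its reference and are not independent replicates.

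**Figure D1:**
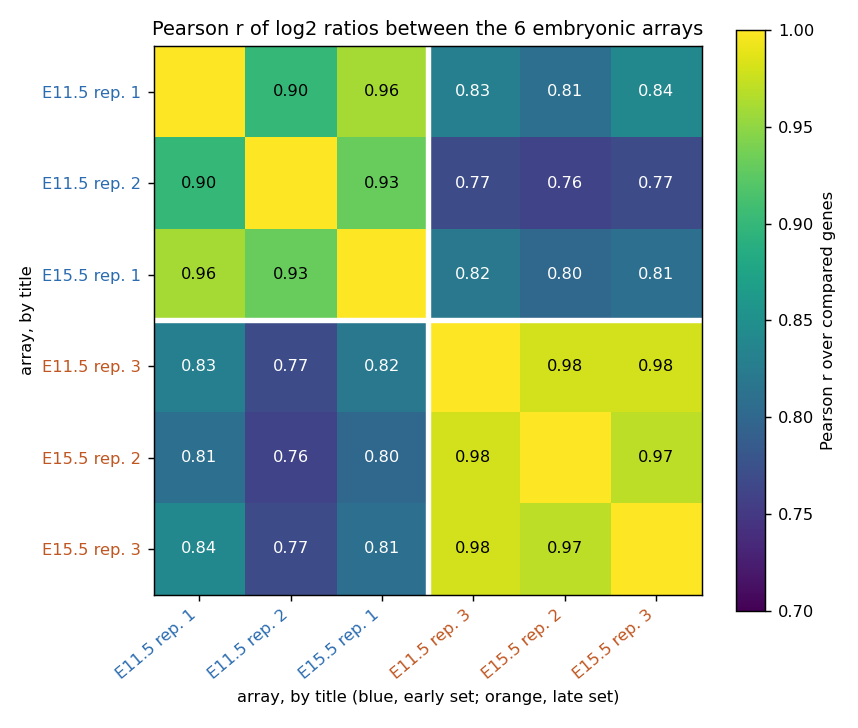
Pearson's r of log2 ratios over 18490 genes for each pair of the 6 embryonic arrays, with arrays named by title and ordered by set (blue names, early; orange names, late; white lines part the sets). Pairs inside a set reach 0.90 to 0.98, and pairs across the sets lie between 0.76 and 0.84.

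The late set lay nearer than the early set to the P0 arrays, which the grouping did not use. Arrays with alike profiles stand at similar distances from any other profile, so this is no separate check of the grouping. The log2 ratios of the early set correlated with the P0 mean at 0.59 to 0.63, and those of the late set at 0.84 to 0.85. The array titled E11.5 replicate 3 stood at 0.84, and the array titled E15.5 replicate 1 at 0.60. The root mean square distance to the P0 mean was 0.94 to 1.01 log2 units in the early set and 0.62 to 0.64 in the late set. When each array was placed between the means of the other arrays of the sets, with 0 for the early and 1 for the late mean, its median position over the genes that set those means apart was 0.00 for the array titled E15.5 replicate 1 and 0.97 for that titled E11.5 replicate 3. The 4 arrays that kept their labels lay at 0.08, 0.07, 1.03 and 0.94. Since the sets were formed from these same values, the positions are descriptions too.

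The slide layout limits this comparison. The 3 early arrays and the array titled E11.5 replicate 3 shared slide 1, where the exchanged arrays held neighbouring positions 3 and 4, while the other late arrays were on slide 2. Within slide 1, the array titled E11.5 replicate 3 against the 3 early arrays gave 1122 genes higher and 305 lower, by the rule given below for the sets. With a single late array, no overlap is easier to meet than between the full sets, so these counts are not like for like. That array was also placed in the late set by these same values. The array titled E11.5 replicate 2 stood apart in spread. Its log2 ratios had an SD of 0.82 over genes against 1.06 to 1.15 on the other 5, and its Cy3 median intensity was 385.7 against 222.6 to 267 on the other 11 wild-type arrays. Across these 12 arrays, 60.5% to 69.3% of spots were well above background in Cy5, and none was saturated.

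A gene was counted when the 3 arrays of one set all lay above the 3 of the other and the set means differed by at least 1. By this rule 1088 genes (5.88% of 18490) were higher in the late set and 309 (1.67%) were lower. Under the deposited labels, the same rule found 0 genes higher at E15.5 (0%) and 2 lower (0.0108%), namely Spp1 and Lce3f. Spp1, which encodes osteopontin, was at -7.92, -1.93 and -8.11 on the arrays titled E11.5 and at -8.33, -8.35 and -8.32 on those titled E15.5, so that its size rested on E11.5 replicate 2. Lce3f, a cornified envelope gene, was at 1.65, 2.01 and 0.85 against 0.31, 0.04 and 0.06. Without a minimum difference, the sets did not overlap for 8121 genes, and the labelled ages for 655. The median SD of a gene over 3 arrays was 0.18 in the early and 0.12 in the late set, against 0.23 in the arrays titled E11.5 and 0.21 in those titled E15.5. The median size of a gene's difference was 0.25 between the sets and 0.12 between the labels. Of the genes counted between the sets, 77.9% were higher in the late set, against 90.4% with median centring in place of loess and 64.6% with the processed signals of the scanner software.

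**Figure D2:**
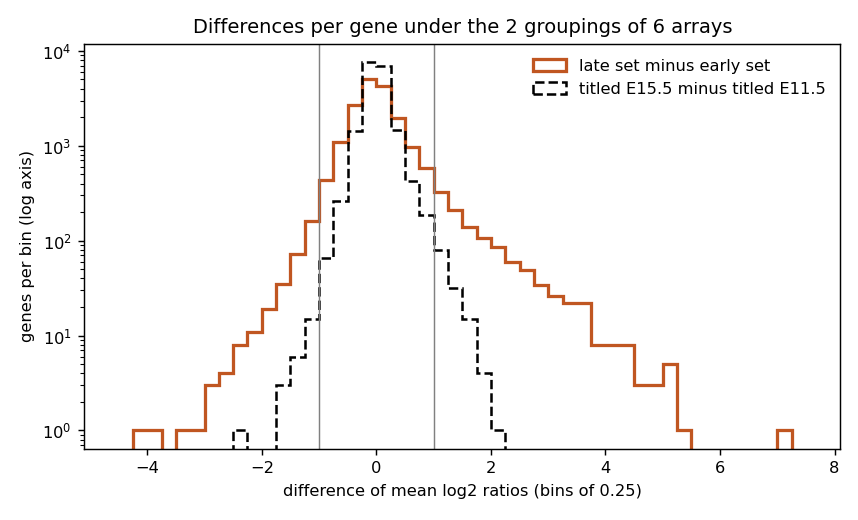
Number of genes (log axis) by difference of mean log2 ratios, in bins of 0.25, for the late minus the early set (orange) and for arrays titled E15.5 minus those titled E11.5 (dashed black), with grey lines at a 2-fold difference. The late minus early differences reach from -4.04 to 7.20, with a longer arm on the higher side, and the labelled differences stay closer to 0.

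The comparison that the titles imply was tested with limma over the 6 embryonic and 6 postnatal arrays together. Of 19538 genes, 0 (0%) passed the Benjamini-Hochberg threshold, 319 had an unadjusted p under 0.05, and the lowest adjusted p was 0.994. Without the array titled E11.5 replicate 2, 1 gene passed, the transcript AK046255, with a difference of 3.58 (SE 0.29, limma adjusted p = 0.00625). Leaving out both exchanged arrays, so that only arrays that keep their label remained, gave 1125 genes higher (6.08% of 18491) and 378 lower (2.04%). Of the genes counted with all 6 arrays, 1032 of 1088 and 264 of 309 were counted again. Sets that do not overlap cannot overlap with fewer arrays, so only the 2-fold limit could drop a gene. The remaining arrays had also formed the sets, so the recount is no separate check.

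The members just past the limit were Cfhr2, with a difference of 1.00, and Ly6h, with 1.001, while Pygb and Stard8 fell just short with values that also round to 1. On the lower side, Ogfrl1 at -1.001 and Sbk1 at -1.002 were counted, and Lat at -0.999 and Inhba at -0.998 were not. Of the compared genes, 427 were well above background on none of the early arrays and 46 on none of the late arrays. For such genes the fold is given as a lower bound, measured in Cy5 against the dimmest signal that was still well above background on each array. Where that Cy5 fold exceeded the fold of the log2 ratios, no bound is given, and the difference of the log2 ratios stands alone.

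Values on single arrays are listed below in the order E11.5 replicate 1, E11.5 replicate 2 and E15.5 replicate 1 for the early set, and E11.5 replicate 3, E15.5 replicate 2 and E15.5 replicate 3 for the late set. Set means are given with the SD over 3 arrays. Counts in the gene lists are to be read beside the shares over all compared genes, 5.88% higher and 1.67% lower.

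The gene furthest above its early level was Cyp2f2, a cytochrome P450 known from secretory cells of the airway. Its log2 ratios were -1.55, -0.79 and -1.95 in the early and 5.77, 5.86 and 5.70 in the late set. It was well above background on 1 of the 3 early arrays, so that its difference of 7.20 starts from a level near background. S100a14, a calcium-binding protein of stratified epithelia, measured -0.66, -0.31 and -0.64 on the early arrays and 4.93, 4.75 and 4.55 on the late arrays, a difference of 5.28. Krt4, the keratin of suprabasal cells in the esophagus, measured -0.03, 0.06 and -0.21 in the early and 5.17, 5.28 and 5.09 in the late set. Krt4 was not well above background on any early array, and its log2 ratios differed by 5.24.

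Adamdec1, a secreted metalloprotease, measured 2.13, 3.04 and 2.99 on the early arrays and 7.97, 8.22 and 7.65 on the late arrays, a difference of 5.23. Pkp1, a plakophilin of desmosomes, measured -2.40, -1.52 and -2.34 in the early and 3.15, 3.32 and 2.92 in the late set, a difference of 5.22. No early value of either gene came within 4 log2 units of a late value. The ectonucleotidase Entpd2 (4.80), the lysosomal Plbd1 (4.73), the matrix protein Dpt (4.56, well above background on 1 early array) and Calml3 (4.46), a calmodulin-like protein of keratinizing epithelia, followed. The serpin Serpinb11 was not well above background on any early array and was at least 20.1-fold higher. Further genes of this group were Meig1, which is needed for sperm formation (at least 21.4-fold), the EF-hand gene Efcab10 (4.90, well above background on 2 early arrays), Dynlrb2, a dynein light chain of the roadblock family (4.82), and Agr3, known from ciliated airway cells (at least 19.1-fold).

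The genes furthest below their early level included the mesenchymal regulators Foxd1 and Foxc2 and embryonic globins. Foxd1, a forkhead factor of embryonic mesenchyme, measured 2.09, 2.97 and 2.83 on the early arrays and -1.36, -1.30 and -1.11 on the late arrays, a difference of -3.89. Has2, the hyaluronan synthase of early mesenchyme, measured 1.1, 1.79 and 1.96 in the early and -1.26, -1.61 and -1.49 in the late set, a difference of -3.07. Foxc2, a forkhead factor of paraxial mesoderm and vessels, measured 0.81, 1.75 and 1.4 on the early arrays and -1.61, -1.54 and -1.48 on the late arrays, a difference of -2.86. In all 3 genes the early arrays were above the reference and the late arrays below it.

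Hmga2, a chromatin protein of growing embryonic tissues, had 0.57, 0.54 and 0.79 in the early and -2.26, -2.17 and -1.95 in the late set, a difference of -2.76. Sp5, a transcription factor that Wnt signalling induces, had 3.89, 4.13 and 4.28 on the early arrays and 1.5, 1.76 and 1.84 on the late arrays, a difference of -2.40. Crabp1, a cytosolic binding protein of retinoic acid, had -1.22, -0.59 and -1.74 in the early and -3.59, -3.73 and -3.16 in the late set, a difference of -2.30. The other genes among the 15 lowest, next to the globins described below, were Slc14a1 (-2.68), Dmrt2 (-2.66), Tox3 (-2.57), Smoc1 (-2.55), Aif1l (-2.41), Rhox5 (-2.32) and Hkdc1 (-2.31). The direction of all 30 genes was the same within slide 1, as their choice required. Under the deposited labels their differences kept the same sign. Most arrays hold the same place in both groupings, so a large difference tends to keep its sign. On the higher side the labelled differences lay between 1.17 for Calml3 and 2.06 for Cyp2f2. On the lower side they lay between -1.54 for Hbb-y and -0.32 for Hkdc1.

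**Figure D3:**
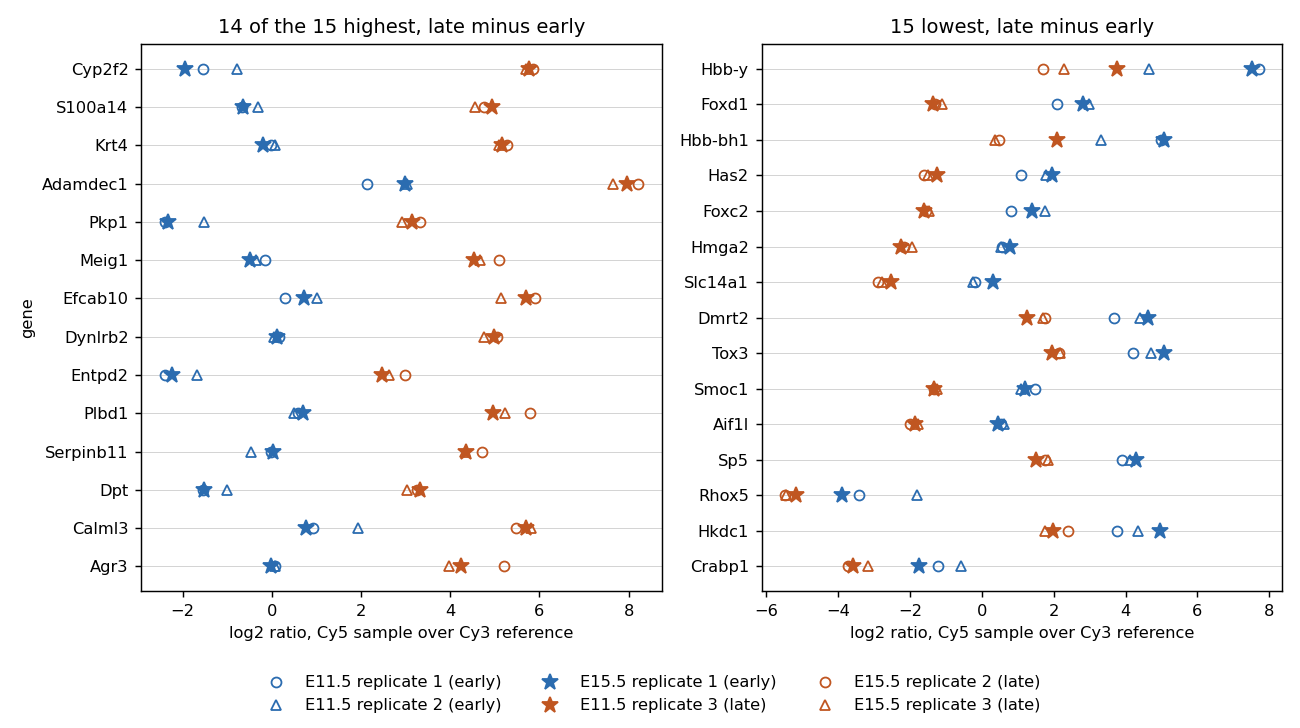
Log2 ratio (Cy5 esophagus over Cy3 reference) of 14 of the 15 genes highest and of the 15 lowest in late minus early difference on each of the 6 arrays (blue, early set; orange, late set; stars, the exchanged arrays titled E15.5 replicate 1 and E11.5 replicate 3). No blue mark reaches an orange mark in any row, and the stars lie on the side of their own colour. The 3 early values of Hbb-y run from 4.66 to 7.71.

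Primitive red cells, which make embryonic globins, circulate before definitive red cells from the fetal liver replace them. The 3 embryonic globins had lower late than early means, with a median difference of -3.48 against -0.02 over all compared genes. Hbb-y measured 7.71, 4.66 and 7.52 on the early arrays and 3.76, 1.71 and 2.30 on the late arrays, and Hbb-bh1 4.99, 3.31 and 5.08 in the early and 2.10, 0.47 and 0.37 in the late set, so that neither overlapped. Hba-x measured 4.66, 2.2 and 4.51 on the early arrays and 3.44, 2.27 and 2.40 on the late arrays and overlapped, because the array titled E11.5 replicate 2 was low. Without that array, all 3 embryonic globins were counted as lower, with a median of -4.06. The summed Cy5 intensity of the group was 32700 to 170000 on the early and 962 to 3760 on the late arrays. The late array titled E11.5 replicate 3 had the highest Hbb-y, Hbb-bh1 and Hba-x values of the late set.

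No adult globin was counted. Hbb-bt differed by 0.98, with sets that lay just apart at 4.89 and 4.92, and Hba-a1 by 0.75, with overlap. Without the array titled E11.5 replicate 2 their median difference was 0.22, against 0.87 with it. Each shares most of its sequence with a neighbouring globin copy, so that its probes may read both. Of 14 compared red cell genes, 0 were higher and 2 lower, the factor Nfe2 (-1.09) and the erythropoietin receptor Epor (-1.04), with a median of -0.07. Slc4a1, the anion exchanger of red cells, had 3.5 ± 0.74 (n = 3) in the early and 3.59 ± 0.66 (n = 3) in the late set.

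Among genes of basal squamous cells, which anchor the epithelium and hold its dividing cells, 11 of 19 were higher in the late set and 0 lower, with a median difference of 1.08. Krt14, the basal keratin, measured -1.17, -0.45 and -1.04 in the early and 1.77, 1.85 and 1.91 in the late set, a difference of 2.73. Col17a1, a hemidesmosomal collagen, measured 1.44, 1.49 and 1.75 on the early arrays and 4.72, 4.90 and 4.53 on the late arrays, a difference of 3.16. Perp, a desmosomal protein, measured 0.42, 1.09 and 0.78 in the early and 3.59, 3.82 and 3.5 in the late set, a difference of 2.87. None of these values overlapped, and the late SD of Krt14 was 0.07.

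Krt5, the partner keratin of Krt14, had 2.48 ± 0.20 (n = 3) in the early and 3.24 ± 0.12 (n = 3) in the late set, a difference of 0.77. The defining transcription factors differed less than Krt14. Trp63, the p63 gene, had 2.01 ± 0.16 (n = 3) in the early and 2.58 ± 0.07 (n = 3) in the late set. Its difference was 0.57, under the 2-fold limit, and its 3 probes ran from -0.08 to 1. Sox2, which specifies the foregut squamous fate, had 6.13, 4.90 and 6.83 on the early and 6.42, 6.73 and 6.36 on the late arrays, so that the sets overlapped. Sox2 and Trp63, which mark the esophageal epithelium, thus lay above the reference on all 6 arrays. Pax9, a factor of foregut and squamous epithelium, was higher by 1.59, and Klf5, a factor of basal cells, by 1.97. Itga6, the integrin of hemidesmosomes, differed by -0.15, and its probes disagreed in direction.

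Of 21 suprabasal genes compared, 12 were higher in the late set and 0 lower, with a median of 1.23. Krt13, the partner keratin of Krt4, measured -0.36, -0.29 and -0.46 on the early arrays and 3.84, 3.66 and 3.92 on the late arrays, a difference of 4.17. Tgm1, the transglutaminase that cross-links the cell envelope, measured 0.40, 0.21 and 0.10 in the early and 3.64, 3.77 and 3.67 in the late set, a difference of 3.46. Mal, a raft protein of stratified epithelium, was not well above background on any early array and was at least 17.1-fold higher. Sprr1a differed by 0.63, with overlap, and Tgm3 by 0.50, with 2 early arrays well above background, while at P0 they stood at 2.65 ± 0.24 and 3.41 ± 0.09 (n = 3 each). Lor, which encodes loricrin, measured 5.97, 4.17 and 6.11 on the early arrays and 4.08, 3.90 and 4.33 on the late arrays. Its sets overlapped through the array titled E11.5 replicate 2 alone, and without it the late arrays were all below the early arrays.

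Of 20 columnar epithelial genes, 11 were higher in the late set and 1 was lower, with a median of 1.1. Krt19, a simple epithelial keratin, measured -1.5, -1.24 and -1.75 in the early and 1.64, 1.82 and 2.04 in the late set, a difference of 3.33. Agr2, a secretory pathway protein that was not well above background on any early array, differed by 3.30. Krt8 and Krt18, the first keratin pair of simple epithelia, differed by 1.63 and 1.18. Cdh1, E-cadherin, was counted with a difference of 1.1, but its early values were 4.99, 3.07 and 5.34, and its late values 5.5, 5.52 and 5.68, so that the size of its difference rested on the array titled E11.5 replicate 2. The exception was Cldn6, an embryonic claudin, which had 3.27, 2.21 and 3.43 on the early arrays and 1.65, 1.66 and 1.96 on the late arrays and differed by -1.21. Without the array titled E11.5 replicate 2, 8 columnar genes were higher and 1 lower.

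Motile cilia need a programme of their own, in which Foxj1 and the RFX factors switch on axonemal genes, and Ccno and Myb act as basal bodies multiply. In the list of motile cilia genes, 30 of the 41 compared were higher in the late set and 0 lower, with a median of 1.4. Foxj1 measured 0.74, 0.29 and 0.99 in the early and 4.49, 4.5 and 4.19 in the late set, a difference of 3.72. Ccno measured -1.60, -0.60 and -1.58 on the early arrays and 2.42, 2.59 and 2.40 on the late arrays, a difference of 3.73. The axonemal and transport genes 1110017D15Rik (4.39), Dnali1 (3.60), Zmynd10 (3.40), Tppp3 (2.80), Tekt4 (2.72) and Drc1 (2.68) were counted as higher, although Dnali1 was well above background on only 2 early arrays. Of Ccdc113 and Spag6l, neither well above background on any early array, the former differed by 4.32 and the latter was at least 8.8-fold higher.

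Other genes of the programme were not counted. Rfx2 and Rfx3, RFX family factors that bind the promoters of cilia genes, differed by 0.26 and -0.29. Tekt2, a tektin of the axoneme, measured 3.06, 2.55 and 3.43 in the early and 2.79, 3.18 and 2.67 in the late set and differed by -0.13. Tekt1 lay above the reference in the early set too, at 2.41 ± 0.38 (n = 3), and was counted with a difference of 1.76. Myb was counted at 1.05, although 1 of its 4 probes went the other way. The summed Cy5 intensity of the list was 38200 to 41800 on the early and 97500 to 153000 on the late arrays.

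RFX factors bind the X-box, of which GTTGCCA is a half-site. It was searched on both strands in the RefSeq promoters (GRCm38.p6) from 250 bases before to 50 after the start of transcription, and no other motif was searched. It was found for 8 of the 33 compared cilia genes with a promoter in that table (24.2%), for 7 of the 22 that were higher in the late set (31.8%), and for 1358 of all 27025 genes (5.02%). The 8 genes were Ccno, Zmynd10, Drc1, Tekt1, Mlf1, Sntn, Iqcg and Hydin. Such a match is a description of these windows and shows no binding. The 250 bases before the start are shown for the 3 holders with the largest differences in which the motif lies before the start, with the motif in capitals on either strand, because they let the spacing be compared.
Ccno, chr13:112987552-112987801, plus strand, motif from base -219: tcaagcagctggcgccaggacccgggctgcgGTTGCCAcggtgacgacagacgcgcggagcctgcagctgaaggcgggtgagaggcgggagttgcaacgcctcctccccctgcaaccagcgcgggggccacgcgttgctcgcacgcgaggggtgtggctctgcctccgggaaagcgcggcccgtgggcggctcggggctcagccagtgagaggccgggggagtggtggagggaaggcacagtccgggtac
Drc1, chr5:30281143-30281392, plus strand, motif from base -12: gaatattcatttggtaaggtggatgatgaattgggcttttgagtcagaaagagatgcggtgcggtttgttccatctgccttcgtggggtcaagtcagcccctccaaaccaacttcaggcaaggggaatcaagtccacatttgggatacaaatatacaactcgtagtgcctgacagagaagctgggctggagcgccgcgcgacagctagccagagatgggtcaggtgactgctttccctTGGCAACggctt
Tekt1, chr11:72361883-72362132, minus strand, motif from base -15: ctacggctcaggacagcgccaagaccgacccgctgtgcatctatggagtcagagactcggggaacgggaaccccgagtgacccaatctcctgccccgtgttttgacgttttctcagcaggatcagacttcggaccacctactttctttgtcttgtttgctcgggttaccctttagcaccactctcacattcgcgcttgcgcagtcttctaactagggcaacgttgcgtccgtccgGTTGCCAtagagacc
The half-site of Drc1 and Tekt1 lies within 20 bases of the start, and that of Ccno far upstream. Zmynd10 holds it 38 bases after the start.

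After birth the cilia genes were tested on arrays that the grouping did not use. Between P7 and P0, limma with Benjamini-Hochberg adjustment called 521 of 18310 genes higher at P7 (2.85%) and 535 lower (2.92%), and 22 of the 38 tested cilia genes were lower and 0 higher. Foxj1 fell by 3.43 (SE 0.15, limma adjusted p = 0.000251), and Drc1 by 2.48 (SE 0.19, limma adjusted p = 0.00134). Tekt1 fell by 2.07 (SE 0.26, limma adjusted p = 0.00779), and Ccdc113 by 2.28 (SE 0.22, limma adjusted p = 0.00259). Outside the list, Efcab10 fell by 4.52 (SE 0.21, limma adjusted p = 0.000251) and Dynlrb2 by 3.81 (SE 0.19, limma adjusted p = 0.000323). Agr3 and Meig1 fell by 2.67 (SE 0.24, limma adjusted p = 0.00199) and 1.45 (SE 0.18, limma adjusted p = 0.00677). At P7 Foxj1 stood at -0.09 ± 0.12 (n = 3), below its early value. Ccno was already at -1.90 ± 0.15 (n = 3) at P0, under its early mean of -1.26 ± 0.57, and did not pass the test from P0 to P7. Tppp3 stayed high, at 4.91 ± 0.14 at P7.

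These postnatal calls have a limit. P0 and P7 arrays were on different slides, so slide and age cannot be told apart, and the Y-linked Eif2s3y fell by 4.48 (SE 0.55, limma adjusted p = 0.00686) while Xist rose by 1.07 (SE 0.16, limma adjusted p = 0.0125), which differ with sex. The part of either in the calls was not tested. Leaving out the array titled P7 replicate 2 gave 1141 genes higher and 821 lower, and leaving out P0 replicate 3 gave 94 and 127. The share of calls that were higher was 49.3%, and 31.2% with median centring.

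Because the airway lies against the esophagus, markers of the respiratory epithelium were read beside the cilia genes. Of 10 compared, 4 were higher in the late set and 1 lower, with a median of 0.17. Besides Cyp2f2, Cbr2, a carbonyl reductase of lung, measured -1.90, -0.75 and -1.90 on the early arrays and 1.98, 2.06 and 2.26 on the late arrays, and Scgb3a2, a secretoglobin of airway cells, 0.21, 0.36 and -0.14 in the early and 1.13, 2.39 and 2.30 in the late set. Sftpc, the surfactant gene of alveolar cells, was at least 2.09-fold higher. Scgb1a1, the marker of club cells, differed by 0.13, with 2 arrays of each set well above background, and the lung factor Nkx2-1 and the surfactant gene Sftpb had no probe well above background on 3 arrays. The summed Cy5 intensity of the list was 11800 to 15400 on the early and 119000 to 152000 on the late arrays, and its part in the cilia result was not tested. The lower marker was Sox9 (-1.30), a factor that the distal lung shares with cartilage. Scgb3a2 was at 5.03 ± 2.45 at P0 and 1.48 ± 1.16 at P7, and Sftpc at 2.85 ± 1.11 and 0.58 ± 0.36. Neither passed the limma test, and Cyp2f2 and Cbr2 had higher means at P7 than at P0. On the array titled P7 replicate 1, the stomach and gut markers Tff1, Atp4a, Lgals4 and Vil1 stood at 5.23, 4.81, 4.07 and 3.86. Anxa13, Pgc and Gkn3 stood there at 3.08, 2.81 and 1.66, and Nkx2-3 and Muc6 at 0.13 and -0.14. Tff1 was also at 4.27 on P7 replicate 2 and at 2.84 on P0 replicate 2. On those arrays every other compared marker of the list was at or below 1.01. The part of neighbouring tissue in the fall of the cilia genes after birth was not tested.

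All 20 smooth muscle genes had a higher late mean, 13 were counted as higher and 0 as lower, and the median was 1.64. Des, the intermediate filament desmin, measured 0.39, -0.34 and -0.44 on the early arrays and 3.66, 3.40 and 3.55 on the late arrays, a difference of 3.67. Synm, its partner synemin, measured -0.44, -0.60 and -0.44 in the early and 3.45, 3.72 and 3.41 in the late set, a difference of 4.02. Acta2, smooth muscle actin, was higher by 1.82, and Tagln, an actin-binding protein, by 3.18. The early set was not without smooth muscle transcripts. Myh11, the smooth muscle myosin, had 5.02, 2.34 and 4.67 on the early arrays and 5.14, 4.88 and 4.92 on the late arrays. Myocd, the cofactor that drives the smooth muscle programme, had 4.43, 2.48 and 4.52 against 4.44, 4.34 and 4.46. After birth Myocd fell by 1.20 (SE 0.12, limma adjusted p = 0.00301).

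Striated muscle genes were less even. Of 27 compared, 10 were higher and 1 lower, with a median of 1.00, which was 0.39 within slide 1 and 1.13 without the exchanged arrays. Myl4, an embryonic myosin light chain, measured 0.58, -0.63 and -0.92 on the early arrays and 2.85, 2.78 and 2.96 on the late arrays, a difference of 3.19. Ckm, the muscle creatine kinase, measured -0.19, -0.34 and -0.06 in the early and 2.23, 2.47 and 3.11 in the late set and was well above background on 1 early array. The array titled E11.5 replicate 1 was high for several of these genes. Its Myh3, an embryonic myosin heavy chain, was 4.18 against 0.54 and 1.25 on the other early arrays, and its Myog, the myogenin gene, 2.17 against 0.93 and 0.25. The array titled E11.5 replicate 3 was the lowest late array for Myh3, at 3.17, and Myog, at 1.51, so that both genes overlapped. Myod1, a myogenic regulator, differed by -0.50.

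Isl1, a homeobox factor of pharyngeal mesoderm, from which esophageal striated muscle comes, ran against the group. It measured 3.74, 2.88 and 3.60 on the early arrays and 1.09, 1.70 and 2.04 on the late arrays, a difference of -1.79, and its P0 mean of 3.02 ± 0.17 (n = 3) lay between the set means. Tbx1, another factor of pharyngeal mesoderm, differed by -0.70. Heart markers were read beside the muscle genes, and 6 of 14 were higher and 0 lower, with a median of 0.90. Myh6, the atrial myosin, differed by 2.26 and was well above background on 1 early array, while Nkx2-5 differed by -0.32 and lay below the reference on all arrays. Their summed Cy5 intensity was 5530 to 8960 on the early and 35600 to 47400 on the late arrays, and their part in the muscle result was not tested.

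Enteric neurons and glia derive from neural crest cells that express Sox10 and Ret. Of 34 compared genes, 14 were higher in the late set and 0 lower, with a median of 0.80, and without the array titled E11.5 replicate 2 these counts were 9 and 2. Vip, the neuropeptide of inhibitory motor neurons, measured 0.17, -0.10 and 0.01 in the early and 3.30, 3.54 and 3.44 in the late set and was at least 7.78-fold higher. S100b, a glial protein, measured 0.55, 0.10 and 0.63 on the early arrays and 3.43, 3.08 and 3.41 on the late arrays, a difference of 2.88. Nos1, the neuronal nitric oxide synthase, measured -1.26, -0.65 and -1.20 in the early and 0.90, 0.93 and 0.84 in the late set. It differed by 1.93, with 0.32 and 3.53 on its 2 probes. Vip, S100b and Nos1 are all products of differentiated enteric neurons or glia.

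Among the crest regulators, Sox10 differed by 0.34, and Ret was not compared. Ednrb, the endothelin receptor of crest cells, was higher by 1.72 and Phox2a, a factor of autonomic neurons, by 1.59. The neurofilament genes Nefl and Nefm had lower late means, with differences of -0.60 and -0.85. The 2 probes of Nefm ran from -1.67 to -0.04, and only 1 was well above background on at least 3 of the 6 arrays. Nefl overlapped only through the array titled E11.5 replicate 2, which had 3.29 against 5.78 and 5.59 on the other early arrays. From P0 to P7, 1 of the 33 tested genes was lower, a share near the 2.92% of all tested genes. This gene was Ednrb, which fell by 1.38 (SE 0.29, limma adjusted p = 0.0399).

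Collagen and matrix genes, the products of fibroblasts, were higher for 19 of 38 and lower for 1, with a median of 1.06. Mfap5, a protein of elastic microfibrils, measured 0.80, 0.05 and 0.59 on the early arrays and 4.37, 4.38 and 4.36 on the late arrays, a difference of 3.89. Lum, the proteoglycan lumican, measured 4.67, 5.24 and 5.18 in the early and 7.00, 6.96 and 7.03 in the late set, a difference of 1.97. Col1a1, Col3a1 and Col6a1 were higher by 1.97, 1.35 and 2.41, the elastin gene Eln by 1.65 and the proteoglycan gene Dcn by 1.24. Col1a2, whose protein pairs with that of Col1a1, differed by 0.93, and its probes disagreed. The gene counted as lower was Has2, described above. Fn1, the fibronectin gene of early matrix, differed by -0.16.

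Other cells of the wall were read from marker lists. Over all compared genes 5.88% were higher, and a count near this share says little about a list. Of 18 endothelial genes, 1 was higher, Lyve1, a receptor of lymphatic vessels and of some macrophages, with 1.17, 1.33 and 1.34 on the early arrays and 3.94, 4.07 and 4.04 on the late arrays. The endothelial cadherin Cdh5 differed by 0.80 and Pecam1 by 0.26. Of 14 myeloid genes, 2 were higher, the macrophage receptor Mrc1 (2.69) and the complement gene C1qa (1.18), while the common leukocyte gene Ptprc differed by -0.28. In the fat list, the lipid-binding protein gene Fabp4 (2.58) and Cidea (2.47, well above background on 1 early array) were higher among 6 genes.

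Liver markers were higher for 7 of 11, with a median of 1.62. Ahsg and Alb, which encode serum proteins made by the fetal liver, differed by 3.38 and 2.71, each well above background on 2 early arrays, and Afp by 2.39. Fgb, which encodes a fibrinogen chain, was at least 5.27-fold higher. The liver factor Hnf4a differed by 0.03, with 2 arrays of each set well above background. The summed Cy5 intensity of this list was 3310 to 5150 on the early and 15400 to 21400 on the late arrays.

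Among foregut transcription factors, which pattern the tube along its axes, 1 of 27 was higher and 4 were lower, with a median of -0.34. Foxa2, a pioneer factor of endoderm, measured 5.78, 5.6 and 6.20 in the early and 4.80, 4.82 and 4.75 in the late set, a difference of -1.07. Osr1, a factor of lateral mesoderm, measured 2.44, 1.56 and 1.87 on the early arrays and 0.75, 0.48 and 0.96 on the late arrays, a difference of -1.23. Its relative Osr2 went the other way, with 0.12, 0.41 and -0.26 in the early and 1.45, 1.55 and 1.91 in the late set and a difference of 1.54. Sox9 and Isl1 were the other lower factors. Barx1, a factor of foregut mesenchyme, overlapped, with a difference of -0.28.

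Hox genes, which mark position along the body axis, had lower late means for 19 of 22, but only 3 were counted as lower and 0 as higher, with a median of -0.48. Hoxa5 measured 2.00, 1.31 and 1.93 on the early arrays and -0.08, -0.43 and -0.18 on the late arrays, a difference of -1.98. Hoxb5 differed by -1.05. The P0 mean of Hoxa5 was 0.50 ± 0.22 (n = 3), between the set means.

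Hedgehog signals pass from the epithelium to the mesenchyme. Of 16 Hedgehog genes, 0 were higher and 0 lower, with a median of -0.12. The ligand gene Shh had 5.36, 3.08 and 5.65 on the early and 4.57, 4.65 and 4.52 on the late arrays, so that the sets overlapped through the array titled E11.5 replicate 2. The target gene Gli1 differed by -0.28. Hhip, an inhibitor that the pathway itself induces, differed by -0.23 and fell after birth by 1.19 (SE 0.14, limma adjusted p = 0.00558).

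Of 46 Wnt genes, 5 were higher and 4 lower, with a median of -0.06. The ligand gene Wnt3a, not well above background on any early array, differed by 3.29, and Wnt10a had -3.47, -1.34 and -3.37 in the early and -0.22, -0.28 and 0.01 in the late set, a difference of 2.56. The receptor gene Fzd6 (1.64), the Dickkopf family gene Dkk3 (2.13) and the inhibitor Nkd1 (1.35), which Wnt signalling also induces, were higher too. Besides Sp5, the lower genes were Axin2, a feedback inhibitor that Wnt signalling induces, with 2.12, 2.43 and 3.32 on the early arrays and 1.30, 1.49 and 1.4 on the late arrays and a difference of -1.22, and the secreted inhibitors Notum and Dkk1, which were not well above background on any late array and differed by -2.27 and -1.90. Dkk1 had 1.44, 3.59 and 1.22 in the early set, so that the size of its difference rested largely on the array titled E11.5 replicate 2. The ligand gene Wnt2 of foregut mesenchyme had 6.50, 4.31 and 6.61 in the early and 3.99, 4.20 and 4.54 in the late set. Its overlap came from the array titled E11.5 replicate 2. Without that array 7 Wnt genes were lower and 5 higher.

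Among BMP and TGF beta genes, 2 of 31 were higher and 5 lower, with a median of -0.05. The shares over all compared genes were 5.88% higher and 1.67% lower. The ligand gene Tgfb2 measured 2.76, 1.75 and 2.85 on the early arrays and 0.48, 0.58 and 0.56 on the late arrays, a difference of -1.91. Id1, Id3 and Smad7, which BMP signalling induces, differed by -1.27, -1.5 and -1.34, and the activin subunit gene Inhbb by -1.16. Gdf10, which encodes a ligand of the BMP family, measured 0.86, 1.57 and 0.92 in the early and 2.23, 1.75 and 2.69 in the late set, a difference of 1.11. Nog, which encodes the antagonist Noggin, had 1.18 ± 0.30 (n = 3) in the early and 1.28 ± 0.06 (n = 3) in the late set, and Bmp4 differed by 0.43.

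In the FGF list, 2 of 19 were higher and 0 lower, Fgf18 (1.41) and Fgf13 (1.18), with a median of 0.16. Over all compared genes, 5.88% were higher. Fgf10, a mesenchymal ligand, differed by -0.31. In the Notch list, 4 of 22 were higher and 0 lower, with a median of 0.46. These were the noncanonical ligand genes Dner (1.98) and Dlk1 (1.68) and the targets Hes5 (1.26) and Nrarp (1.21). Notch1, the receptor of basal cells, differed by 0.83.

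A list of heterochronic and imprinted growth genes, which are high in early embryos or control fetal size, held 5 lower and 2 higher of 21, with a median of -0.35. Next to Hmga2 and Crabp1, Mycn, a growth-promoting Myc gene, measured 3.20, 2.46 and 3.24 on the early arrays and 1.01, 1.12 and 1.07 on the late arrays, a difference of -1.90. Igf2bp1, an RNA-binding protein that binds Igf2 transcripts, measured 1.63, 1.29 and 1.81 in the early and -0.05, 0.09 and 0.17 in the late set, a difference of -1.51, and it fell after birth by 0.50 (SE 0.10, limma adjusted p = 0.0314). Lin28b, an RNA-binding protein that blocks let-7, differed by -0.53 and was well above background on 2 late arrays. The imprinted growth genes Igf2 and H19 had higher late means, by 0.90 and 0.85, with overlap. Plagl1 (1.32) was counted as higher, with Dlk1.

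Cell cycle genes had lower late means for 32 of 39, with a median of -0.43, although only 3 were counted as lower and 0 as higher. Mcm10, Mcm2 and Bub1, which act in replication and at the spindle checkpoint, differed by -1.11, -1 and -1.02. Mki67, the proliferation marker Ki-67, differed by 0.12, and its probes disagreed. Without the array titled E11.5 replicate 2, 1 cell cycle gene was counted as lower.

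**Figure D4:**
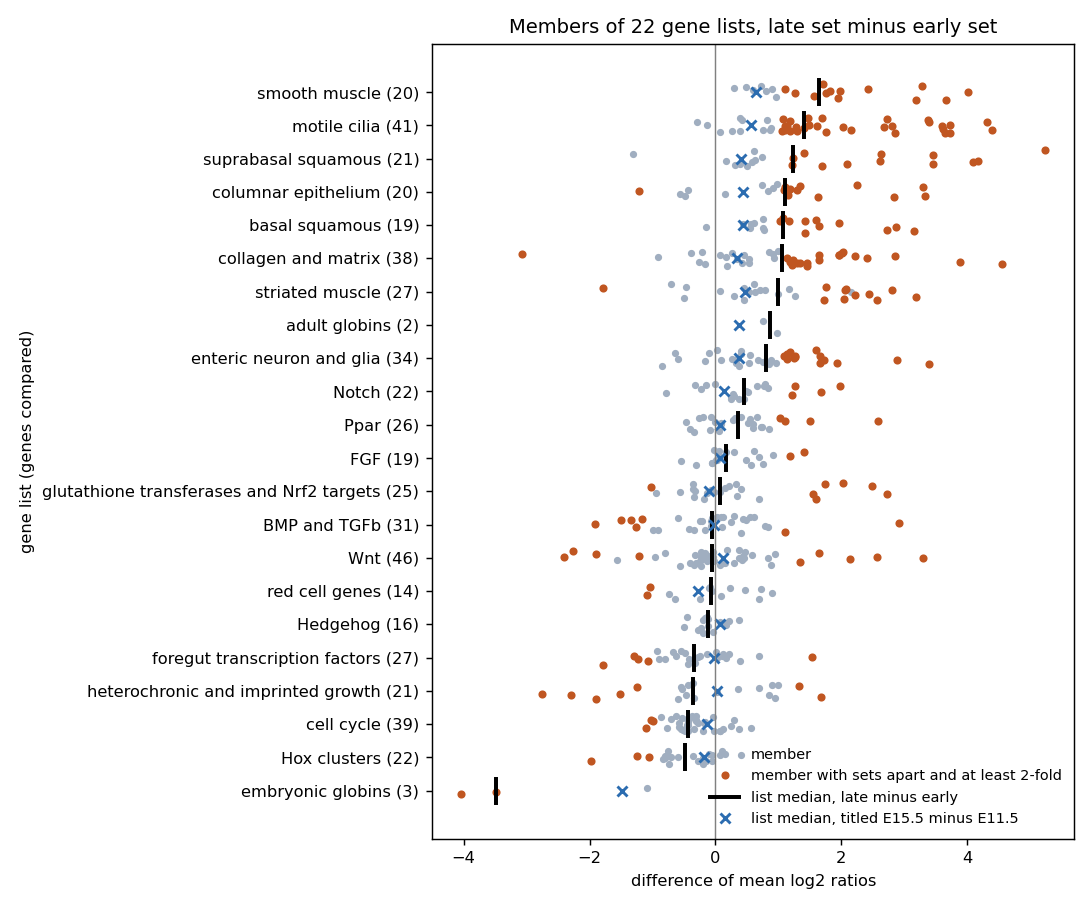
Late minus early difference of mean log2 ratios for the members of 22 gene lists (points; orange, sets apart and at least 2-fold), with the list median (black bar) and the median of the same genes under the titled ages (blue cross) and the number of genes compared in brackets. Medians run from -3.48 for embryonic globins to 1.64 for smooth muscle, and the blue crosses lie nearer to 0 for both.

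Nrf2 switches on glutathione transferases and other detoxifying enzymes, and Keap1 restrains it. In this list, 6 of 25 were higher and 1 lower, with a median of 0.07. Gsta1, Gsta2 and Gsta3, which are close copies that may share probes, differed by 2.72, 2.02 and 2.48, with Gsta1 and Gsta2 well above background on 2 early arrays. Gsta4 measured -0.13, -0.28 and -0.17 on the early arrays and 1.47, 1.5 and 1.22 on the late arrays, a difference of 1.59, and Gsto1 differed by 1.74. After birth Gsta4 fell by 0.67 (SE 0.10, limma adjusted p = 0.0142). The classical target Nqo1 overlapped, at 0.22, and Hmox1, heme oxygenase, had -2, -0.72 and -2.08 in the early and -2.61, -2.73 and -2.51 in the late set, a difference of -1.02, and was not counted without the array titled E11.5 replicate 2. The genes of the pathway itself, Nfe2l2 and Keap1, differed by -0.18 and 0.35. The 4 probes of Nfe2l2 ran from -0.66 to 0.26, and 1 of them went the other way.

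PPAR receptors control lipid genes. Of 26 genes, 4 were higher and 0 lower, with a median of 0.36, namely Fabp4, Pdk4 (1.51), Acadm (1.1) and Cd36 (1.03), which act in fatty acid binding, fuel choice, oxidation and uptake. Ppard, the receptor of squamous epithelium, differed by 0.09, and it was well above background on 1 early and 2 late arrays.

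Gene groups that the study named as patterns of this phase were chosen by it on these same arrays. They are therefore not independent evidence of a direction. Which array the study took for which age was not established here. The paper describes the samples of each time point as clustering together. Under the deposited titles, the embryonic profiles did not group by age here. Of Pattern 11, 48 of 62 compared genes were higher in the late set and 0 lower, with a median of 1.65, and 43 of 59 were lower at P7 than at P0. It holds many cilia genes, such as Rsph1, Armc3 and Tekt1, next to Hdc, the histidine decarboxylase gene, which differed by 2.99, and Kera, which encodes the proteoglycan keratocan (2.69). Of Pattern 13, 20 of 28 were higher, with a median of 1.25, among them Ccno, Deup1 (2.01, well above background on 1 early array), a protein of basal body assembly, and Tnmd (2.65, on 2), a marker of tendon, which stood at 0.18 ± 0.22 (n = 3) at P0. Of Pattern 15, 6 of 13 were higher, and all 13 were lower at P7. Of Pattern 16, all 7 were higher, led by the chemokine gene Cxcl14, which measured -0.77, -0.87 and -0.54 on the early arrays and 2.76, 2.82 and 2.72 on the late arrays. Pattern 17 had 4 of 5 lower, including Hoxa5 and Plxna2 (-1.65). Pattern 12 had 1 higher and 0 lower of 16, with a median of -0.50.

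Lists of tissues that lie near the esophagus gave no counted gene in cartilage (14 compared), stomach and gut (9) or thyroid and parathyroid (4). At the shares over all compared genes, 5.88% higher and 1.67% lower, lists this short would hold few counted genes. In the thymus and lymphoid list, Lck was lower (-1.37) among 8. In the notochord and sclerotome list, Foxc2 and Tbx6 (-1.51) were lower among 8, and Pax9 was higher. In the spinal cord list, Isl2 was lower (-1.69) and Hes5 and Fabp7 were higher, and in the list of mesothelium and kidney, Msln (2.31) and Krt19 were higher and Osr1 was lower. Krt35, a hair keratin, was the counted gene of 7 in the keratinized skin list and was at least 4.09-fold higher. No gene of the sex list was counted, and of 13 stress and dissection genes Hspa1a was higher (1.38).

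For 892 of the 1088 higher genes (82%), the P0 mean was nearer to the late than to the early mean, and for 605 (55.6%) it lay beyond the late mean. For the 309 lower genes, 275 (89%) had a P0 mean nearer to the late mean, against 68.4% of all compared genes. Since the genes were chosen for a large gap between the set means, these shares are descriptions. From P0 to P7, limma with Benjamini-Hochberg adjustment called 148 of 1067 tested higher genes lower (13.9%) and 23 higher (2.16%), against 2.89% and 2.66% of all compared genes that were tested. Of the 292 tested lower genes, 15 were higher (5.14%) and 9 lower (3.08%). Of the 148 genes, 19 were on the cilia list and 56 on that list, Pattern 11 or Pattern 15. The paper describes both patterns as falling from P0 to P7 on these same arrays. Their members among the 148 are thus no separate evidence of a fall.

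Some epithelial genes also fell after birth. Krt19 fell by 0.99 (SE 0.11, limma adjusted p = 0.00486), Epcam, an adhesion molecule of simple epithelium, by 0.73 (SE 0.12, limma adjusted p = 0.0171), and Trp63 by 0.52 (SE 0.11, limma adjusted p = 0.0462). Krt4, Krt13 and Krt14 were at 5.89 ± 0.24, 4.65 ± 0.47 and 2.81 ± 0.47 (n = 3 each) at P7 and did not pass the test against P0. Lor rose by 1.08 (SE 0.23, limma adjusted p = 0.0438). Isl1, low in the late set, was at 3.85 ± 0.60 (n = 3) at P7.

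**Figure D5:**
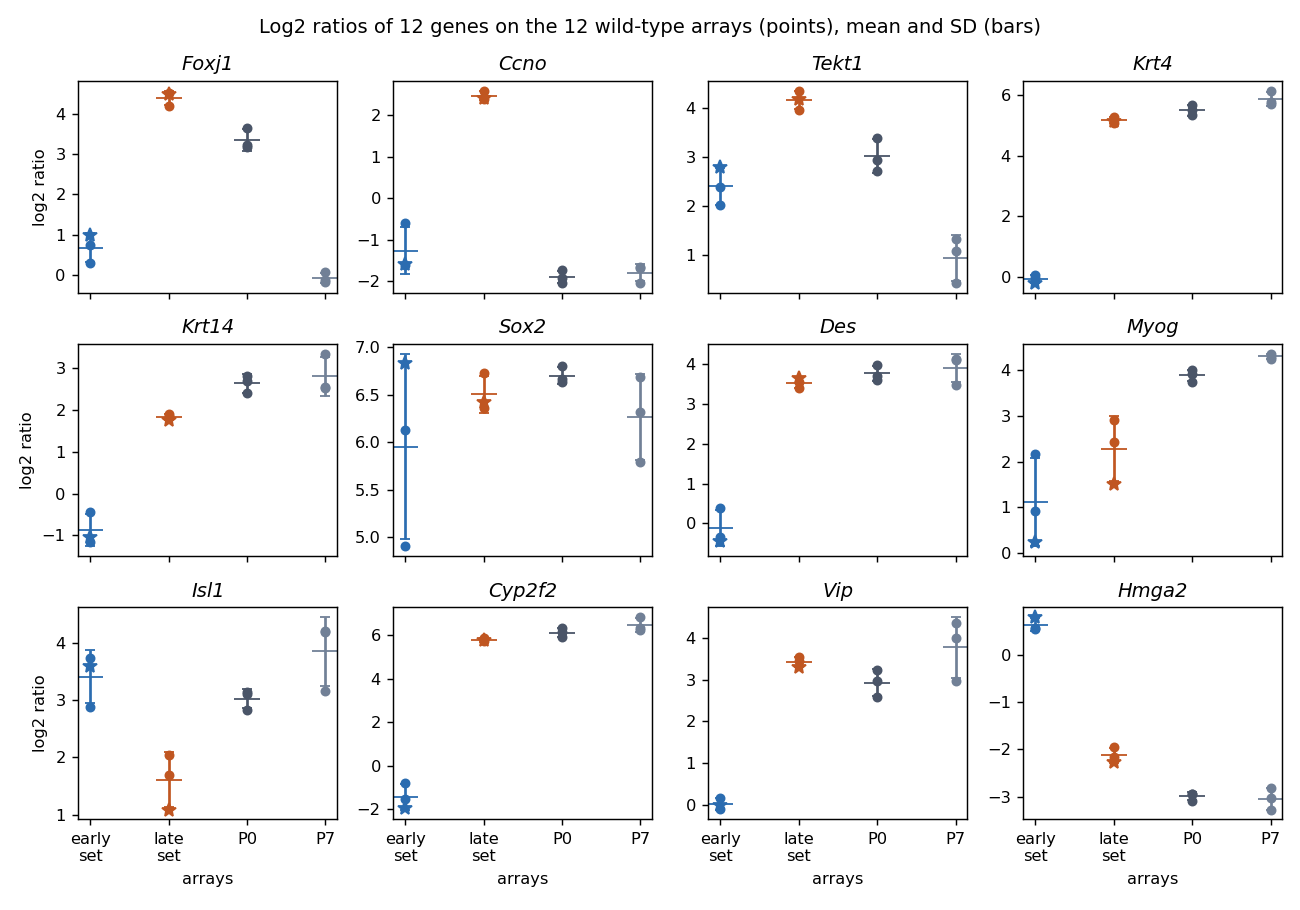
Log2 ratios of 12 genes on single arrays (points) with the mean and SD of each group of 3 (bars), for the early set, the late set, P0 and P7, with the exchanged arrays drawn as stars. Foxj1 and Tekt1 peak in the late set and are lowest at P7, Ccno is high in the late set only, Krt4, Des and Cyp2f2 stay high to P7, and Hmga2 stays low.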

How the data were processed

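RNA of mouse esophagus (Cy5) and a common reference RNA (Cy3) were hybridized to 2-colour Agilent arrays. The deposited scanner files give spot intensity in both channels, mean signal and local background, and the authors' software also wrote processed signals and a log10 ratio for each spot. The deposited value table holds log10 ratios, which matched those of the scanner files within 0.02 for 100% of values after both were turned to log2. From the mean signals, background was corrected by normexp (offset 50), arrays were normalized by loess, and log2 ratios of red over green were averaged per probe (41174) and gene (27670). Spots marked as outliers were kept, and a spot was left out where its local background was more than 5-fold the median of its array (0.00442%). A missing probe of a gene with several probes was filled in from additive probe and array effects. Probes were named through RefSeq by accession (22951), symbol (6659) or synonym (3109), and otherwise kept the file's name (8455).

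Differences between the sets were not tested, because the sets came from these values. The labelled ages and P7 against P0 were tested with limma 3.58.1 (R 4.3.3, statmod 1.5.0), lmFit and eBayes, with Benjamini-Hochberg adjustment at 0.05, and the fits were tested on simulated data. Genes needed a probe well above background on 3 arrays. Nothing in the labels says more than that samples of a group are separate, so p-values measure the spread between these samples. The number of arrays limits the precision. Deviations of same-numbered P0 and P7 arrays correlated at r = 0.14, 0.34 and 0.22, but the labels do not pair these samples. The fit with the replicate number as a block is only an alternative. Named were the 15 genes highest and the 15 lowest in difference that were apart, well above background on all arrays of the brighter set and of the same direction within slide 1. From each gene list, the defining members and those furthest up and down were named, with others chosen after their values were seen. The members and lists were chosen with earlier results of these data known. A bound for a dim gene takes, per array, the higher of its own signal and the lowest signal well above background. Per-channel levels behind a bound are open to dye bias, as no dyes were swapped. The mutant and other arrays of the series were not used here, and some genes of the lists are not reported here.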

Additional observations from a re-analysis of the deposited data

How the results depend on the processing

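The 30 genes highest or lowest in difference kept their direction in 554 values over 19 alternatives, at 0.66 to 1.9 times the value given. The 176 counted pathway genes kept it in 3279 values, at 0.08 to 3.79 times the value given, and 2 turned under the deposited labels. These genes were chosen because their sets do not overlap. Leaving out arrays, staying within slide 1 or dropping the background filter or the fold limit therefore could not turn a direction. Only the alternatives of processing could have done so. The number of lower genes was 122 with median centring, 864 with processed signals and 868 with deposited log ratios, and the cause was not tested. The deposited labels gave 0 higher and 2 lower, and dropping the 2-fold limit gave 4113 and 4008. Leaving out 1 array gave 1077 to 1155 higher and 301 to 494 lower, with 1155 higher without E11.5 replicate 2 and 494 lower without E11.5 replicate 1. Leaving out both exchanged arrays was chosen after seeing the data. The slide as a block equals the comparison within slide 1.

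For the labelled ages, leaving out 1 array gave 0 to 1 genes higher and 0 lower, and the replicate block gave 0 and 0. Deviations of same-numbered arrays titled E11.5 and E15.5 correlated at 0.60, -0.46 and 0.65, so the numbers were not taken to pair them.

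For P7 against P0, median centring gave 310 genes higher, each spot's own local background 48 and 46, and all 12 arrays 275 and 186. The replicate number as a block gave 752 and 555, although the labels do not pair P0 with P7 samples. Leaving out 1 array gave 94 to 1141 higher and 127 to 821 lower. A fixed slide block gave no value, because no slide holds both ages. The slide as a random block, added after seeing the data, gave 2411 and 2049 at an estimated correlation of -0.32. Of 57 called genes named or on a pathway list, over 18 alternatives, 299 values kept their sign with a limma adjusted p above 0.05, and 0 reversed.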
